A study of Homo sapiens with 15 samples.

Results

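The RNAs described here were enriched in pellets of untreated, dsRNA-treated and silvestrol-treated extract and low in the pellet formed with PEG. They are 79 of the 16588 nuclear-encoded genes kept by a filter of at least 10 counts in 2 replicates of each condition, from 57500 genes in the files. Cytosolic extracts of U2OS, an osteosarcoma cell line given as wild type, were incubated in translation reactions for 2 h at physiological temperature. They were left untreated (mock) or given 250 nM dsRNA, 2 µg/ml silvestrol or 1% PEG. These reactions were pelleted by centrifugation, and Input was extract that had not been pelleted. Poly(A)-selected RNA was sequenced from 3 biological replicates of each of the 5 groups. The study's methods call the pelleted material YFP-G3BP1 condensates. In droplets of untreated extract, however, the study saw YFP-G3BP1 foci but no condensates. It also names cellular debris that may come down with the pellet as a limit. Counts scaled to a library total describe composition only, so less of an RNA in a pellet and more of all other RNAs cannot be told apart.

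For each pellet group, a gene's value was the log2 ratio of its mean CPM (counts scaled by the file total) to its mean Input CPM, minus the median of that ratio over the 16588 kept genes. The subtracted medians were 0.06 for mock, 0.04 for dsRNA, 0.05 for Silvestrol and -0.35 for PEG, so that PEG values are relative to a general shift in that pellet. Members had values of at least 0.6 in mock, dsRNA and Silvestrol, a PEG value of at most -1 and a mean Input CPM of at least 5. Since these values chose the members, each pellet's difference from Input, and PEG's from the other pellets, is given as a description without a test. Of the 11981 kept genes at the same Input minimum, 1742 met the condition in the 3 pellets and 978 met it in PEG. The 79 members met both, and they are a smaller share of the 1742 than the 978 are of the 11981.

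Stress granules are membraneless condensates of untranslated mRNA and RNA-binding proteins such as G3BP1, which form when translation initiation stalls and ribosomes run off. Double-stranded RNA activates the kinase PKR, which phosphorylates the initiation factor eIF2α, and silvestrol clamps the helicase eIF4A on mRNA, so both are routes to such granules. PEG is a molecular crowder that drives condensation without a signalling pathway. RNAs found in stress granules are known to be long on average, since a longer RNA offers more sites for contacts with proteins and other RNAs.

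The libraries held 15341973 to 46939993 counts (median 35584710), the fewest in PEG replicate 1. In Input the mesenchymal and bone markers VIM, SPARC, COL1A1, RUNX2, CDH2 and FN1 ranged from 67.0 to 1557 CPM, while ALPL was at 3.15 and COL1A2 at 0.116 CPM. Of the markers of other lineages, KRT18 was at 312 and EPCAM at 10.0 CPM, and CDH1, PTPRC, CD3E, HBB, ALB and GFAP were all at or under 0.496 CPM. PEG replicate 1 stood apart from the other two PEG libraries over the members: against the same-numbered Input, and after centring on the kept genes, their median log2 ratio was -0.81 in PEG replicate 1, -1.55 in replicate 2 and -1.51 in replicate 3. This ratio was highest in PEG replicate 1 for 70 of the 79 members, against 39.7% of kept genes. Without that library the rule chose 130 genes, the 79 among them. The Input libraries also differed with GC content. The Spearman correlation between GC content and a library's log2 ratio to the mean of the Input libraries was -0.34 for Input replicate 1. It was 0.21 and 0.39 for Input replicates 2 and 3, across 16505 kept genes that share these libraries. Ratios to a mean of the same libraries offset one another, so these values do not tell which library departed.

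**Figure D1:**
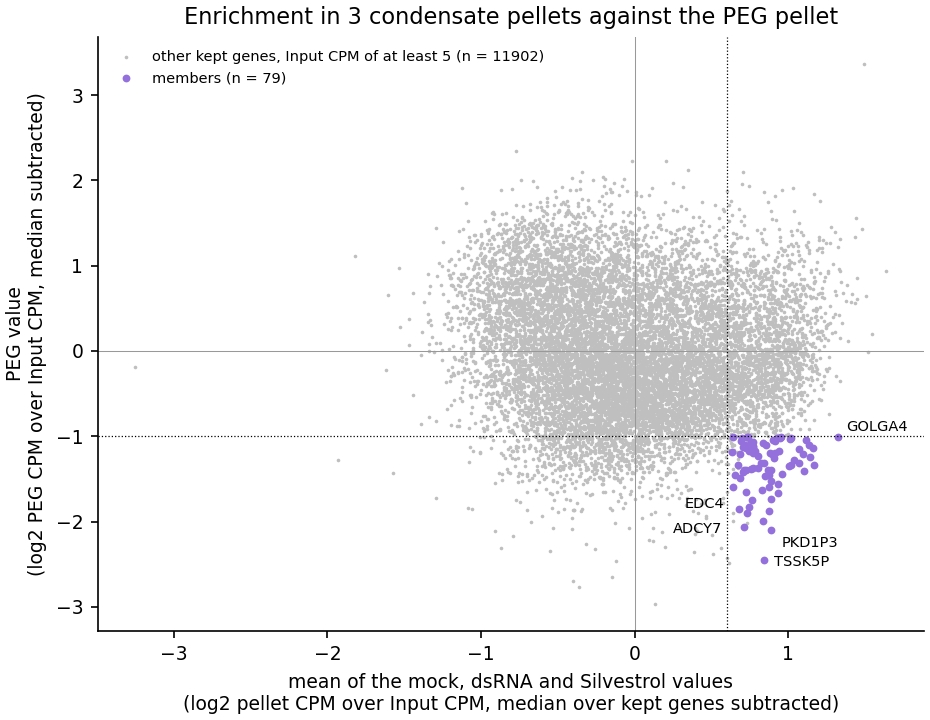
Each point is a gene, with the mean of its mock, dsRNA and Silvestrol values on the horizontal axis and its PEG value on the vertical axis, both as log2 ratios of CPM to Input CPM with the median over kept genes subtracted. The 79 members, in purple, lie at the lower right beyond the dotted lines at 0.6 and -1, with GOLGA4 farthest right and TSSK5P lowest at -2.45.

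The members whose RNA took the most Input reads were 8 long mRNAs, led by PLEC, the cytolinker plectin (chr8:143915147-143976734). PLEC was at 472, 413 and 439 CPM in Input, 805, 639 and 696 in mock, 968, 714 and 708 with dsRNA, 1149, 737 and 707 with Silvestrol and 254, 104 and 102 with PEG (replicates 1 to 3 each). All 9 mock, dsRNA and Silvestrol libraries lay above all Input libraries, and all PEG libraries lay below them. Mean PLEC CPM was 1.62 times that of Input in mock, 1.804 times with dsRNA and 1.96 times with Silvestrol, while Input exceeded PEG 2.88-fold. SMC1A, a subunit of the cohesin ring (chrX:53374149-53422728), had 342, 265 and 287 CPM in Input, 547, 438 and 481 in mock, 562, 511 and 508 with dsRNA, 612, 451 and 502 with Silvestrol and 152, 91.7 and 104 with PEG. Its PEG value of -1.01 was the closest of any member to the threshold, and its own-Input PEG ratio, the log2 ratio to the same-numbered Input after centring, was -1.08 ± 0.05 (SD, n = 3). DLG5, a scaffold of the membrane-associated guanylate kinase family (chr10:77790791-77926526), had 247, 264 and 269 CPM in Input, 461, 381 and 418 in mock, 478, 439 and 451 with dsRNA, 541, 413 and 422 with Silvestrol and 109, 42.1 and 42.9 with PEG. PEG replicate 1 was more than the other two PEG libraries together for DLG5, and the groups still did not overlap.

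ANKRD52, a regulatory subunit of protein phosphatase 6 (chr12:56237807-56258391), had 262, 199 and 207 CPM in Input, 519.88, 267 and 280.38 in mock, 560.36, 309.71 and 295 with dsRNA, 586, 293 and 286 with Silvestrol and 96.1, 45.7 and 53.9 with PEG. Replicate 1 was the highest library in every group, pellets and Input alike, as it was for FLNC, the actin cross-linker filamin C (chr7:128830377-128859274). FLNC had 264, 190.09 and 205 CPM in Input, 497, 263 and 295 in mock, 546, 285 and 299 with dsRNA, 598, 279.3 and 295 with Silvestrol and 84.8, 57.7 and 54.4 with PEG, and its mock replicate 2 lay just below Input replicate 1, so that mock and Input overlapped. Against the same-numbered Input, the FLNC ratio was 0.57 ± 0.20 in mock and -1.45 ± 0.11 in PEG (SD, n = 3). CIC, the transcriptional repressor capicua (chr19:42268537-42295797), had 200.16, 223 and 238 CPM in Input, 432, 339.76 and 399 in mock, 497, 383 and 402 with dsRNA, 546, 389 and 397 with Silvestrol and 96.5, 41.8 and 49.97 with PEG. ELFN2, a leucine-rich repeat membrane protein (chr22:37367960-37427470), had 144, 173 and 189.55 CPM in Input, 307, 278.9 and 279.67 in mock, 328, 315 and 299 with dsRNA, 356, 310.43 and 282 with Silvestrol and 74.2, 33.9 and 44.8 with PEG. For both the pellets other than PEG lay above Input, and PEG below it, in all libraries.

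GOLGA4, a golgin of the trans-Golgi network (chr3:37243177-37366751), combined the highest mean enrichment of any member with a PEG value next to the threshold. It had 236, 171 and 169 CPM in Input, 540.08, 432 and 479 in mock, 580.08, 494 and 549 with dsRNA, 549.61, 441 and 437 with Silvestrol and 107, 51.3 and 65.7 with PEG. Its mock, dsRNA, Silvestrol and PEG values were 1.27, 1.45, 1.25 and -1.01. Mean CPM was thus 2.81 times that of Input with dsRNA, and Input exceeded PEG 2.57-fold. PEG replicate 1 was again the highest of the PEG libraries.

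**Figure D2:**
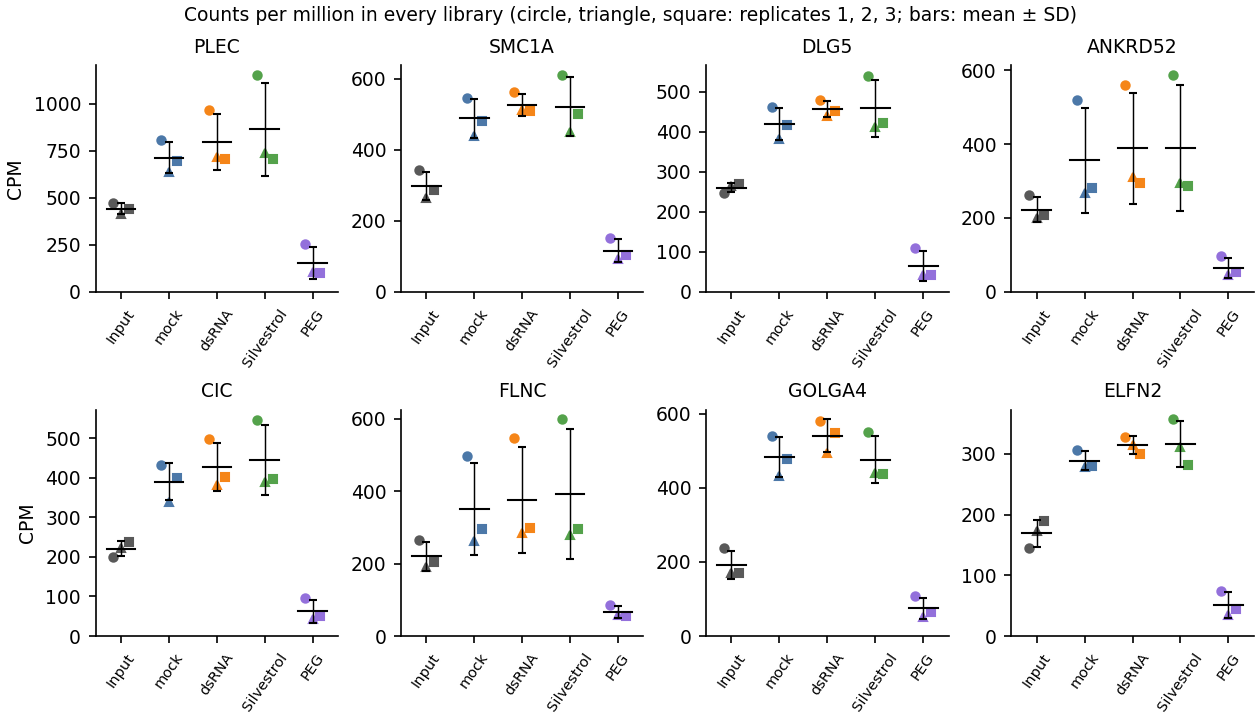
CPM of the 8 members with the highest mean Input CPM in all 15 libraries, by group, with circles, triangles and squares for replicates 1, 2 and 3 and bars for the mean ± SD (n = 3). In each panel the PEG libraries are lowest, and PEG replicate 1 is the highest of them.

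Over the 79 members the median value was 0.74 in mock (0.60 to 1.27), 0.88 with dsRNA (0.62 to 1.45), 0.88 with Silvestrol (0.60 to 1.25) and -1.25 with PEG (-2.45 to -1.01). The 3 PEG libraries lay below the 3 Input libraries in 78 members, a relation that held for 45.4% of kept genes. The exception was MARCHF4, a membrane-bound ubiquitin ligase, and without PEG replicate 1 the count was 79. The 9 mock, dsRNA and Silvestrol libraries lay above the 3 Input libraries in 73 members (24.7% of kept genes), and the 3 PEG libraries lay below those 9 in all 79 (47.4% of kept genes). The rule set these contrasts, so nothing is read from the counts. Together the members made up 0.466% to 0.481% of the counts of Input libraries, 0.772% to 1.04% of those of mock, dsRNA and Silvestrol libraries, and 0.223%, 0.116% and 0.126% of those of PEG replicates 1, 2 and 3.

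MARCHF4 had 16.02, 4.47 and 4.41 CPM in Input, 27.6, 6.74 and 7.94 in mock, 31.9, 8.04 and 8.82 with dsRNA, 32.4, 7.16 and 8.27 with Silvestrol and 4.89, 2.55 and 1.83 with PEG. Its replicate 1 libraries were several times the others in Input and in the 3 enriched pellets, and its PEG replicate 1 lay above Input replicates 2 and 3. Across the 15 settings that each left out 1 library it stayed a member in 7, the fewest of any, whereas 26 of the 79 members stayed in all 15.

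**Figure D3:**
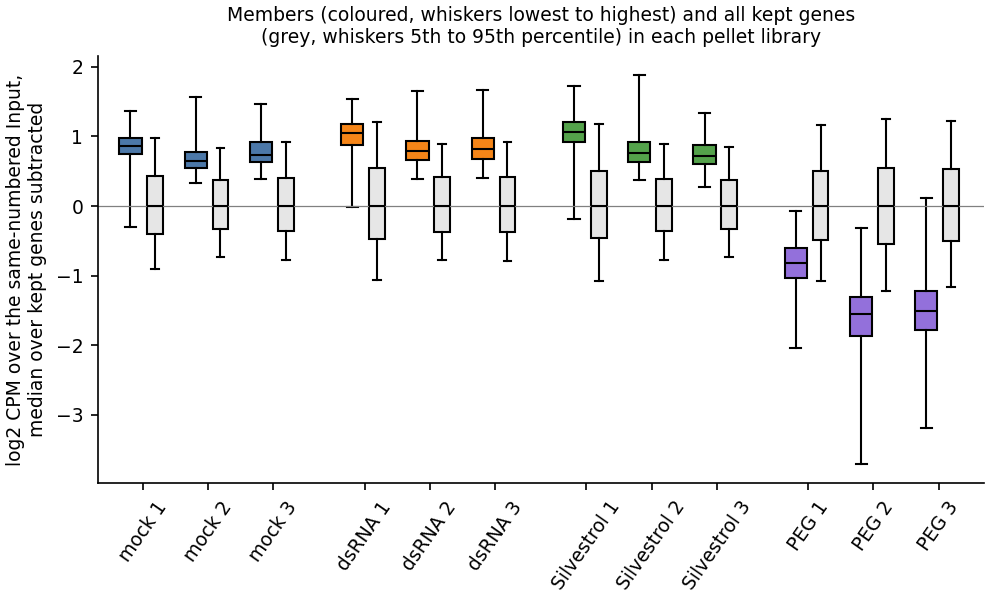
For each of the 12 pellet libraries, the log2 ratio of CPM to that of the same-numbered Input, with the median over kept genes subtracted. Coloured boxes are the 79 members and grey boxes all kept genes, each with median and quartiles. The members sit above 0 in mock, dsRNA and Silvestrol and below 0 in PEG, where replicate 1 (median -0.81) is closer to 0 than replicates 2 and 3 (-1.55 and -1.51).

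Of 30 genes on a list of cell surface receptors, all kept, 3 were members (10%, against 0.476% of kept genes), namely CELSR2, NOTCH1 and PLXNA3. The semaphorin receptor PLXNB3 and the melanocortin receptor MC1R, which are not on the list, were members too, with PEG values of -1.31 and -1.39. Of the 100-base words in their reference transcripts, 15.8% for PLXNB3 occur in transcripts of SRPK3 and 30.9% for MC1R in those of AC092143.1. CELSR2, an adhesion receptor of planar cell polarity (chr1:109250019-109275750), had 57.3, 72.99 and 73.2 CPM in Input, 113, 111 and 129 in mock, 137, 125 and 132 with dsRNA, 149.98, 123 and 129 with Silvestrol and 34.9, 19.6 and 19.5 with PEG. NOTCH1, the receptor whose cleaved intracellular domain acts as a transcription factor (chr9:136494444-136545862), had 53.4, 72.5 and 74.6 CPM in Input, 103, 109 and 125 in mock, 121, 123 and 138 with dsRNA, 131, 128 and 125 with Silvestrol and 31.2, 16.05 and 15.9 with PEG. Both showed separate groups in all libraries, with PEG replicate 1 above PEG replicates 2 and 3. PLXNA3, a receptor for semaphorin guidance cues (chrX:154458281-154477779), had 24.4, 33.8 and 31.7 CPM in Input, 46.4, 57.2 and 61.6 in mock, 57.3, 66.9 and 68.4 with dsRNA, 54.3, 65.1 and 63.5 with Silvestrol and 14.01, 10.2 and 10.5 with PEG, and its Input, pellet and PEG libraries did not overlap either. Over the 30 receptors, 17 had values of at least 0.6 in the 3 pellets and 4 had a PEG value of at most -1. The list's median PEG value was -0.70, against 0 over all kept genes by construction.

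Of 25 cytoskeletal linkers and scaffolds 4 were members (16%, against 0.476% of kept genes), namely PLEC, FLNC, SPTBN1 and MYO18A. SPTBN1, a β-spectrin of the membrane skeleton (chr2:54456285-54671445), had 121, 106 and 109 CPM in Input, 201, 169 and 201 in mock, 214, 195 and 204 with dsRNA, 227, 179 and 195 with Silvestrol and 59.8, 27.9 and 32.6 with PEG. MYO18A, an unconventional myosin of the Golgi and actomyosin networks (chr17:29071124-29180412), had 41.04, 40.8 and 41.9 CPM in Input, 75.9, 66.8 and 75.2 in mock, 84.5, 76.5 and 77.6 with dsRNA, 86.8, 68.7 and 72.9 with Silvestrol and 17.7, 7.46 and 6.11 with PEG. The median values of this list were 0.57 in mock, 0.73 with dsRNA, 0.66 with Silvestrol and -0.67 with PEG, and 11 of its genes reached 0.6 in the 3 pellets while 5 had a PEG value of at most -1. By family name, the members also held the microtubule plus-end proteins CLIP1 and CLIP2, the axonal kinesin KIF1A (1 of 42 kinesins kept), the nonmuscle myosin MYH14, the GTPase regulators ARHGEF18 and ARHGAP33 (of 58 kept genes with these symbol starts), and the adenylyl cyclases ADCY7 and ADCY9.

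No member came from the lists of extracellular matrix genes (24 kept), chromatin regulators (34), Wnt pathway genes (24), core stress granule proteins (28) or nuclear-retained long noncoding RNAs (8). Members were 0.476% of kept genes, so lists this small would rarely hold one at that share, and nothing is read from their absence. The extracellular matrix list reached 0.6 in the 3 pellets in 21 of 24 genes but a PEG value of at most -1 in 1, with medians of 0.98 in mock and -0.48 with PEG. Chromatin regulators differed from these in the threshold counts, with 7 of 34 past 0.6 in the 3 pellets and 11 at or under -1 in PEG (medians 0.46 in mock and -0.76 with PEG). By sign both lists leaned the same way. Above 0 in the 3 pellets were 32 of 34 chromatin regulators and 23 of 24 matrix genes, and below 0 in PEG were 34 and 18. For mRNAs of stress granule proteins the counts were 3 and 6 of 28. Ribosomal protein mRNAs (84) had a median of -0.59 in mock and 1.33 with PEG, and none met either condition. Over all kept genes 2613 of 16588 met the first condition and 1211 the second, here without the Input minimum.

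In PEG the 8 lowest members were TSSK5P, PKD1P3, ADCY7, PKD1P5, EDC4, FBXL19-AS1, NPIPB5 and STAG3L5P, and 6 of them lie on chromosome 16. EDC4, a scaffold of the mRNA decapping complex in P-bodies (chr16:67873023-67884503), was the one with the most Input reads. It had 61.8, 59.6 and 59.3 CPM in Input, 112, 92.2 and 97.5 in mock, 121, 88.04 and 102 with dsRNA, 132, 94.1 and 93.9 with Silvestrol and 18.1, 11.1 and 8.96 with PEG. Input exceeded PEG 4.74-fold, and the own-Input PEG ratio was -1.96 ± 0.33 (SD, n = 3). ADCY7, an adenylyl cyclase that makes cAMP (chr16:50246137-50318135), had 20.1, 19.9 and 21.4 CPM in Input, 39.7, 27.2 and 30.3 in mock, 42.8, 31.5 and 36.7 with dsRNA, 41.7, 30.7 and 32.9 with Silvestrol and 6.45, 2.63 and 2.41 with PEG. Its mock value of 0.60 was just inside the threshold and its PEG value was -2.06. Of their exon bases, 21.2% in EDC4 and 41.6% in ADCY7 lie where another annotated gene has exons, and whether reads there were counted by strand is not given in the sources used here.

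TSSK5P, a pseudogene of a testis-specific kinase (chr8:144141214-144143664), had 6.93, 9.37 and 11.5 CPM in Input, 19.97, 15.5 and 15.6 in mock, 19.3, 16.6 and 15.8 with dsRNA, 21.8, 15.97 and 14.2 with Silvestrol and 3.39, 0.0785 and 0.506 with PEG. These PEG values are 52, 2 and 13 counts, so the lowest PEG value of all members (-2.45) rests on few reads, and its own-Input ratio was -2.56 ± 1.55 (SD, n = 3). FBXL19-AS1, transcribed antisense to a chromatin-binding F-box gene (chr16:30919319-30923269), had 13.9, 11.7 and 13.2 CPM in Input, 28.9, 20.7 and 22.2 in mock, 30.1, 24.04 and 21.3 with dsRNA, 29.8, 23.5 and 21.5 with Silvestrol and 4.89, 1.69 and 1.71 with PEG. STAG3L5P, a pseudogene related to a meiotic cohesin subunit, had 8.44, 10.3 and 9.55 CPM in Input, 13.7, 17.997 and 15.9 in mock, 14.5, 18.5 and 18.1 with dsRNA, 16.1, 17.8 and 15.2 with Silvestrol and 2.67, 1.41 and 2.14 with PEG. NPIPB5, of the primate-specific nuclear pore interacting protein family, had 4.89, 6.58 and 5.96 CPM in Input, 8.12, 10.1 and 9.79 in mock, 11.02, 10.3 and 10.04 with dsRNA, 9.02, 10.3 and 8.32 with Silvestrol and 1.89, 1.06 and 0.818 with PEG. In all of these the PEG libraries were lowest and did not reach Input.

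Copies of PKD1, the polycystin-1 gene, gave 4 members, PKD1P3, PKD1P4, PKD1P5 and PKD1P6, all on the short arm of chromosome 16. PKD1P3 had 5.02, 10.9 and 12.1 CPM in Input, 14.8, 16.3 and 18.9 in mock, 14.5, 19.8 and 22.2 with dsRNA, 18.97, 17.6 and 18.7 with Silvestrol and 3.78, 0.549 and 0.779 with PEG. PKD1P5 had 8.53, 14.4 and 13.99 CPM in Input, 17.97, 20.2 and 25.1 in mock, 20.7, 22.9 and 26.8 with dsRNA, 24.997, 22.02 and 24.6 with Silvestrol and 5.21, 1.06 and 1.01 with PEG. The PEG values of PKD1P3 to PKD1P6 were -2.10, -1.66, -1.99 and -1.56, and in each of them PEG replicate 1 was the highest PEG library. PKD1 itself was no member, with values of 0.78, 0.95, 0.95 and -0.90. Its own-Input PEG ratios were -0.09, -1.56 and -1.31, of which PEG replicate 1 alone lay above -1. Of the 100-base words in their reference transcripts, 87.3%, 93.5%, 80.7% and 75.7% occur in transcripts of other genes, so the counts of these 4 genes are uncertain and may not be independent of each other.

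The 8 members with the highest mean of mock, dsRNA and Silvestrol values were GOLGA4, GOLGA6L5P, GOLGA8A, ARHGAP33, ANO8, GOLIM4, NDOR1 and MAPK8IP3, 4 of which carry Golgi names. GOLIM4, a Golgi membrane protein that cycles through endosomes (chr3:168008677-168095975), had 83.4, 94.8 and 95.3 CPM in Input, 168, 207 and 222 in mock, 180.37, 243 and 242 with dsRNA, 165, 216 and 207 with Silvestrol and 51.8, 23.7 and 28.6 with PEG. MAPK8IP3, a scaffold that links JNK signalling to motor proteins (chr16:1706183-1770317), had 24.7, 34.98 and 35.1 CPM in Input, 50.4, 69.1 and 74.7 in mock, 63.03, 78.3 and 82.7 with dsRNA, 61.3, 77.4 and 74.8 with Silvestrol and 14.99, 6.59 and 10.6 with PEG. ARHGAP33, a GTPase-activating protein (chr19:35774532-35788822), had 16.8, 26.3 and 29.03 CPM in Input, 42.2, 53.5 and 59.5 in mock, 51.5, 56.5 and 63.3 with dsRNA, 51.8, 59.99 and 58.03 with Silvestrol and 12.1, 5.101 and 6.74 with PEG. The groups of all 3 genes were separate, and the GOLIM4 values were 1.07, 1.24, 1.05 and -1.04 in mock, dsRNA, Silvestrol and PEG.

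ANO8, an anoctamin that tethers the endoplasmic reticulum to the plasma membrane, had 12.7, 24.8 and 25.3 CPM in Input, 29.9, 51.1 and 53.1 in mock, 34.5, 59.2 and 56.3 with dsRNA, 34.7, 59.7 and 51.1 with Silvestrol and 10.9, 5.41 and 6.504 with PEG. Its replicate 1 was low in Input and in the 3 enriched pellets and high in PEG, where it nearly reached Input replicate 1. NDOR1, an oxidoreductase of cytosolic iron-sulphur protein assembly, had 12.2, 17.2 and 17.9 CPM in Input, 34.5, 30.4 and 35.7 in mock, 38.4, 31.4 and 35.2 with dsRNA, 43.4, 34.7 and 34.003 with Silvestrol and 6.84, 3.96 and 3.15 with PEG, and 63.3% of its exon bases overlap another gene. GOLGA8A and GOLGA6L5P belong to golgin families with near-identical copies on chromosome 15, and 52.8% and 85.1% of their 100-base words occur in other genes. Their values were 1.09, 1.23, 1.16 and -1.13 and 1.05, 1.26, 1.20 and -1.34, respectively, in the order mock, dsRNA, Silvestrol and PEG. Among the genes that share these words, GOLGA8B had 1.28, 1.32, 1.20 and -0.20 and GOLGA6L9 had 0.99, 1.05, 0.97 and -0.50. Both passed the enrichment thresholds but not that of PEG.

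Thresholds divided genes with nearly equal values. Just inside the PEG threshold were SMC1A (-1.01), NBPF8 (-1.01) and GOLGA4 (-1.01). Just outside it were MIF4GD-DT (-0.999), AGAP4 (-0.995) and the fibrillin gene FBN1 (-0.995). For the lowest of the other 3 values, BDP1, a subunit of the RNA polymerase III factor TFIIIB, PRPF40B, a splicing factor, and ADCY7 were inside at 0.6001, 0.6005 and 0.6027. PARGP1 and the ephrin receptor EPHA4 were outside at 0.5974 and 0.5961. By mean Input CPM, PKD1P4 (5.27), GOLGA6L5P (5.28) and the pseudogene AL669831.1 (5.29) were inside. LINC00174 (4.89), JMJD7-PLA2G4B (4.56) and GTF2IP13 (4.38) were outside.

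The same measure was also read in replicates left out when the rule was applied, although the filter for kept genes had used all replicates. Genes were chosen by the rule on the libraries of 2 replicate numbers and examined in those of the remaining number, against its own Input. With replicate 2 held out, 68 genes were chosen, all 68 had positive ratios in mock, dsRNA and Silvestrol and a negative one in PEG, and 26 passed all 4 thresholds there (38.2%, against 0.756% of 11907 genes with enough Input). With replicate 3 held out, 59 of 60 genes had those signs and 35 passed (58.3%, against 0.906% of 11922). With replicate 1 held out, 114 of 120 genes had those signs, while 10 passed (8.33%, against 0.248% of 12085), with a median PEG ratio of -0.64 instead of -1.59 in replicates 2 and 3. Genes with those signs made up 21.2% to 26.1% of all genes with enough Input. In the held-out replicate 1, 90 of the 120 genes passed the 3 enrichment thresholds and 16 passed that of PEG, so the size of the PEG value, more than its sign, depended on the replicate. The same Input library enters all 4 ratios of a held-out replicate, so their signs are not independent of one another. Nor were the chosen genes the member set. Those chosen with replicates 1, 2 and 3 held out included 62, 54 and 53 members, respectively. The counts therefore describe the genes chosen in each split and are not a test of the members.

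Whether the members differed between the mock, dsRNA and Silvestrol pellets was not set by the rule, although each of these groups had to pass its threshold against a shared Input. With edgeR's quasi-likelihood test, none of the 79 members and none of the 16612 genes tested (0%) passed an adjusted p of 0.05 in any of the 3 contrasts. At an unadjusted p under 0.05 there were 374 genes for dsRNA against mock, 35 for Silvestrol against mock and 330 for dsRNA against Silvestrol, of which 1, 0 and 1 were members. DESeq2 called 64, 0 and 68 genes, with 0, 0 and 1 members among them. Libraries with the same replicate number varied together, and with the replicate number as a block edgeR called 466 genes for dsRNA against mock (2.81%), 2 for Silvestrol against mock (0.012%) and 453 for dsRNA against Silvestrol (2.73%). Members called in the blocked fit were 2 of 79 (2.53%), 0 and 1 (1.27%), shares close to or below those of all genes in the contrasts with dsRNA.

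The 2 members were NBPF8, a pseudogene of the neuroblastoma breakpoint family, and PLXNA3. NBPF8 (chr1:120436353-120467739) had 22.5, 27.1 and 25.3 CPM in Input, 44.6, 55.8 and 58.7 in mock, 42.8, 41.9 and 43.2 with dsRNA, 51.7, 60.8 and 54.8 with Silvestrol and 12.7, 8.36 and 8.101 with PEG. All dsRNA libraries lay below all mock and Silvestrol libraries, and the blocked log2 change was -0.30 ± 0.07 (SE, adjusted p = 0.0063) against mock and -0.38 ± 0.06 (SE, adjusted p = 6e-05) against Silvestrol. Without the block the adjusted p was 1.00 and 0.82. Of its 100-base words 54.4% occur in other genes. PLXNA3 moved the other way, with a blocked log2 change of 0.23 ± 0.07 (SE, adjusted p = 0.034) for dsRNA against mock. Its dsRNA library was above the mock library of the same number in all 3 replicates, and the adjusted p was 1.00 without the block.

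Below the threshold, small differences leaned one way. For dsRNA against mock, 76 of 79 members had a log2 change above 0, with a median of 0.12 against 0.01 over all genes tested, of which 53.97% were above 0. With 1 library left out, 55 to 74 members were above 0, the fewest without dsRNA replicate 1. In 58 of the 79, dsRNA was higher than mock in all 3 same-numbered pairs, against 23.1% of kept genes. For Silvestrol against mock, 72 members were above 0 with a median of 0.10, and 33 were higher in all 3 pairs (15.6% of kept genes). Without Silvestrol replicate 1 these were 44 members and a median of 0.02, and between the replicate 3 libraries the median was -0.02. For dsRNA against Silvestrol, 45 members were above 0 with a median of 0.02, and with 1 library left out 30 to 64 were, with medians of -0.02 to 0.09. Other genes with exons of 5 kb or more and a GC content of 55% or more leaned the same way against mock. Of 1519 such genes 89.2% were above 0 for dsRNA (median 0.08) and 87.5% for Silvestrol (median 0.07), and the 41 members of that class were all above 0, with a median of 0.14 in both contrasts. These differences are below or near the members' median standard error of 0.14 in the fit without the block, against 0.07 in the blocked fit for dsRNA against mock. In the blocked fit 37 members had an unadjusted p under 0.05 for dsRNA against mock (12.6% of all genes did), 26 for Silvestrol (6.49%) and 10 for dsRNA against Silvestrol (10.6%). The 3 contrasts share libraries in pairs. Members were measured in the same libraries and some share sequence, so they are not replicates of one another.

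**Figure D4:**
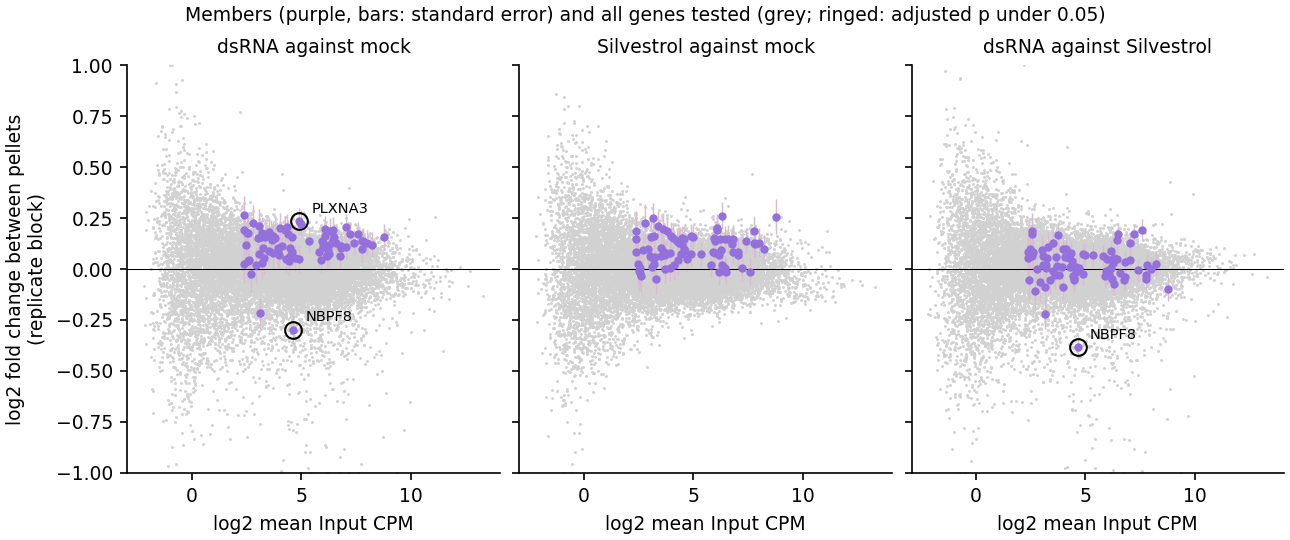
Log2 fold change between pellets in the fit with the replicate block, against log2 mean Input CPM, for all genes tested (grey, with changes beyond 1 drawn at the edge) and for the 79 members (purple, bars are standard errors, rings mark an adjusted p under 0.05). Most members lie just above 0 for dsRNA and Silvestrol against mock, and the ringed ones are PLXNA3 above 0 and NBPF8 below 0.

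The members shared properties that the rule did not use. Their median exon length, merged over annotated transcripts, was 6830 bases (quartiles 4813 and 9955), against 5136 for kept genes with a mean Input CPM of at least 5. The median number of exons was 23 against 11. GC content of the reference transcript, the one with the longest coding sequence, had a median of 58.7% (quartiles 53.5% and 63.6%, 78 members with a sequence) against 49.1%, and CpG dinucleotides had one of 39.2 against 25.8 per kb. The difference in coding sequence was larger than that after the stop codon. In 57 protein-coding members it had a median of 3705 bases, against 1452, while the part after the stop codon had one of 1641 against 1060. Genes and transcripts are not replicates, so these figures are descriptions.

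The 1742 genes that met the 3 enrichment thresholds, the members among them, had medians of 60.1% GC, 5806 exon bases and 13 exons. Of these, the 820 with a PEG value above -1 and at most 0 were close to the members, at 59.0% GC, 7097.5 bases and 19 exons. The 843 with a PEG value above 0 had 61.1% GC, 4452 bases and 9 exons. The 899 genes with a PEG value of at most -1 that were not members had a median exon length of 6893 bases, a median GC content of 42.4% and a median of 13 exons. Among genes with enough Input that had exons of 5 kb or more and a GC content of 55% or more, 41 of 1560 were members (2.63%). In the other 5 classes of length and GC the share was 0.124% to 0.548%. In that class 47.2% of genes passed the 3 enrichment thresholds and 6.47% that of PEG, whereas long genes with under 45% GC passed them in 4.13% and 18.4%. Among genes that passed the 3 enrichment thresholds, 41 of 737 were members in the long class of 55% GC or more. In the long classes of lower GC they were 8 of 193 (45% to under 55%) and 7 of 105 (under 45%). In the classes under 5 kb they were 12 of 592, 8 of 81 and 2 of 29, from high to low GC. Among enriched genes the share of members was thus not highest in the long, GC-rich class. Across all kept genes the PEG value fell with exon length (Spearman correlation -0.48) and rose with GC content (0.30), while the mock value rose with both (0.18 and 0.40). These correlations are across genes measured in the same libraries.

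**Figure D5:**
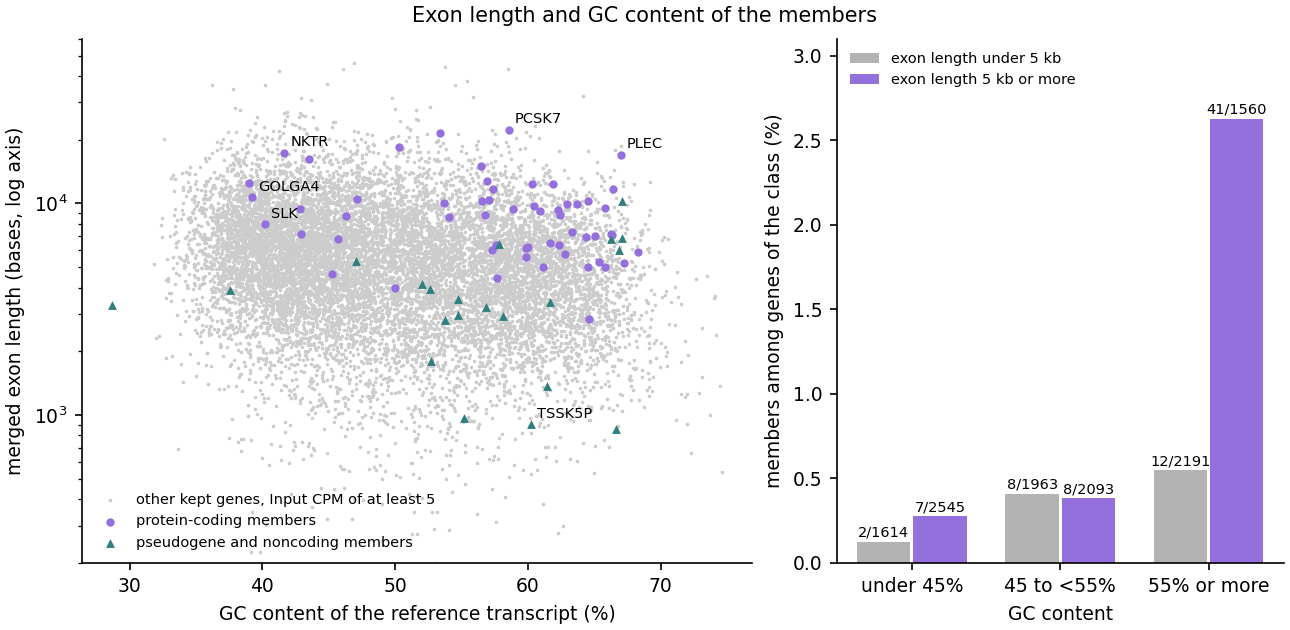
Left, merged exon length (log axis) against GC content of the reference transcript for members (purple circles protein-coding, green triangles pseudogene and noncoding) and other kept genes with a mean Input CPM of at least 5 (grey). Right, the share of such genes that were members in classes of length and GC, with the numbers above the bars, which is highest at 2.63% (41 of 1560) for genes of 5 kb or more with 55% GC or more.

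Reference coding sequence of 4 members shows this range. The pair with the highest and the pair with the lowest coding GC content were taken among protein-coding members with a mean Input CPM of at least 50. In each, the 120 bases within 1 coding exon whose GC share was nearest to that of the whole coding sequence are printed 5′ to 3′ on the mRNA strand, from GENCODE release 29 transcripts on GRCh38, with CpG in capitals. SBK1, a brain-enriched serine/threonine kinase, is shown at chr16:28317424-28317543 and PRR12, a proline-rich nuclear protein, at chr19:49594493-49594612, both on the plus strand.
SBK1: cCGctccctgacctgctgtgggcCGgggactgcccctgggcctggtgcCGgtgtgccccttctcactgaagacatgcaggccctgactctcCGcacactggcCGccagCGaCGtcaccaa
PRR12: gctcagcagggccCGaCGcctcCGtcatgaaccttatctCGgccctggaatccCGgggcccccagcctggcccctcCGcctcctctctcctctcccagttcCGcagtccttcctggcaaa
GOLGA4 is shown at chr3:37298835-37298954 and SLK, a kinase of the actin cytoskeleton, at chr10:103999127-103999246, also on the plus strand.
GOLGA4: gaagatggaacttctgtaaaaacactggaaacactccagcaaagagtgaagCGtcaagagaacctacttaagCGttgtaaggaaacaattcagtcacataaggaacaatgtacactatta
SLK: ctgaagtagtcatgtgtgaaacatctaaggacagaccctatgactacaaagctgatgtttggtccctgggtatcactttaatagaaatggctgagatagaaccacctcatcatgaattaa
The first pair held 69.2% and 67.5% GC with 7 CpG each, and the second 38.3% and 40.0% with 2 and 0.

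The rule placed all 4 transcripts among the members. SBK1 had 0.71, 0.85, 0.85 and -1.23 in mock, dsRNA, Silvestrol and PEG, PRR12 had 0.62, 0.81, 0.89 and -1.19, GOLGA4 had 1.27, 1.45, 1.25 and -1.01 and SLK had 0.87, 1.05, 0.87 and -1.02. SBK1 CPM was 40.4, 67.9 and 76.2 in Input and 25.7, 16.8 and 18.9 in PEG, and SLK CPM was 163, 143 and 141 and 75.3, 45.4 and 51.7. Input replicate 1 was the lowest Input library for SBK1 and the highest for SLK. By GC content, 53 members had 55% or more, 16 had 45% to under 55% and 9 had under 45%. The 9 were GOLGA4, SLK, NKTR, CLIP1, BDP1, CEP128, ADAMTS3, GOLGA6L5P and AC245060.5. Their median own-Input mock ratios were 0.49, 0.90 and 0.98 in replicates 1, 2 and 3, against 0.89, 0.63 and 0.71 in the 53 GC-rich members. The Input libraries differed with GC content too, and the part of Input replicate 1 in these ratios was not tested.

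By annotation, 58 members were protein-coding (73.4%, against 81.5% of kept genes), 14 were pseudogenes (17.7%, against 4.76%), 6 were long noncoding RNAs (7.59%, against 12.6%) and 1, AC002310.6, was of neither kind. The 14 pseudogenes had a median mean Input CPM of 9.30 and a median PEG value of -1.52, and the protein-coding members had 50.7 CPM and -1.21. Chromosome 16 held 14 members (17.7%, against 4.60% of kept genes) and chromosome 19 held 10 (12.7%, against 6.94%). The 14 on chromosome 16 include the 4 copies of PKD1, which share sequence with one another, and NPIPB5, which shares it with other NPIPB genes. On chromosome 19 they were CIC, LENG8, PRR12, PIP5K1C, MYH14, REXO1, ARHGEF18, ARHGAP33, ANO8 and ZNF584-DT, none of which shared 20% or more of its 100-base words with other genes except ARHGEF18 (81.1%).

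Reads of 25 members may be divided with other genes. At least 20% of their exon bases overlap exons of other genes, or at least 20% of their 100-base words occur in transcripts of other genes. In 40 members both shares were under 5%. These 40 had a median exon length of 9220.5 bases, a median GC content of 60.2% and a median of 25 exons, each above that of all 79. AC240274.1, on the scaffold KI270711.1, had no reference sequence and was left out of the GC content.

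Of the transcripts that the study names, none was a member. Among the 8 long ones, BCL9L, a Wnt coactivator, had a PEG value of -1.99 but a mock value of 0.53, short of 0.6. PEG3 had -1.09 and 0.26, and MAP1A, a microtubule-associated protein, had 0.63 in mock but -0.59 with PEG. AHNAK2, AHNAK, DYNC1H1, ZNF704 and CDK6 met neither condition, with PEG values of -0.47, -0.37, -0.28, -0.57 and -0.74. All 8 long transcripts nevertheless had values above 0 in mock, dsRNA and Silvestrol and below 0 with PEG. The study counted RNAs as enriched at a fold change above 1 over input, a different cut from that of the rule. For the overlap with published arsenite-induced stress granules it also asked for a q-value under 0.05. The 4 short ones, RPL39, RPS29, RPL31 and GAPDH, were low in mock, at -0.93, -0.70, -0.79 and -1.10, and high with PEG, at 0.93, 1.26, 1.49 and 1.08.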

How the data were processed

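Poly(A)-selected RNA of 15 libraries was sequenced by the authors. They deposited raw counts per gene for each library. The submitters' processing notes name Trimmomatic 0.36, STAR 2.5.2b, featureCounts of Subread 1.5.2 and GRCh38, and a strand setting is not given in the sources used here. Libraries held 15341973 to 46939993 counts. The values, the filter and the rule are as the report gives them, and single-library ratios used a prior of 0.5 CPM.

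The members and the gene lists were chosen with earlier results of these data known. Named were the 8 members with the highest Input CPM, the 8 with the lowest PEG value, the 8 with the highest mean of the other values, members on the lists, the 3 genes on either side of each threshold (1 is not reported here), members called between pellets and the 12 transcripts of the study. Other genes and groups were named after their values were seen.

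Pellets were compared with edgeR 4.0.16 in R 4.3.3 (TMM, quasi-likelihood test, Benjamini-Hochberg adjusted p under 0.05) on the 6 libraries of a contrast and 16612 genes, 24 of them mitochondrial. DESeq2 1.42.0, other scalings, filters and thresholds, the replicate block and each library left out were alternatives. The labels' biological replicate numbers gave the pairing: deviations from group means correlated at 0.63 to 0.88 between same-numbered libraries and at -0.78 to 0.61 between others. The fits were run on simulated data first, with changes larger than the members' median changes, so this does not show how well changes as small as theirs are found.

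Coordinates are those of the files. Gene type, exon overlap and sequence came from GENCODE release 29 (GRCh38), where 76 of the 79 members had the same start and end, and 100-base words were compared with all its transcripts. Summaries used Python 3.11.15 with pandas 2.3.3, and figures matplotlib 3.10.9.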

Additional observations from a re-analysis of the deposited data

How the results depend on the processing

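Of the libraries, PEG replicate 1 moved the number of members most. Leaving out 1 library at a time, or 1 replicate number in every group, gave 55 to 130 genes. The highest number came without PEG replicate 1, with all 79 members among them, and 120 were chosen without replicate 1 of every group, 62 of the 79 among them. Without median centring the rule chose 274 genes, with thresholds of 0.5 and -0.8 it chose 217, and with 0.8 and -1.2 it chose 16. Whichever replicate number was left out, 32 of the 79 remained. In the contrasts between pellets, leaving out each library gave 0 members called throughout. The replicate block moved the members called from 0 to 2 for dsRNA against mock and to 1 for dsRNA against Silvestrol, where DESeq2 also gave 1, and it changed no call for Silvestrol against mock. With the block in the rule itself, as the mean of same-numbered ratios, 83 genes were chosen, 68 of the 79 among them. Other scalings gave 76 to 77 members with PEG below Input, 69 with the other pellets above Input and 79 with PEG below those pellets, while the shares of all kept genes became 27.2% to 33.0%, 20.8% to 23.1% and 31.3% to 34.2%. The medians of exon length, GC content and exon number stayed within 1.5 times their values under each alternative run, including the members chosen without PEG replicate 1. That alternative, the one without members of shared sequence and the count of PEG libraries below the other pellets were added after the data were seen. Counts under 10 in a PEG library leave low members, such as TSSK5P, imprecise.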

Other observations

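Relatives of members that are not members themselves, 51 in all, were chosen by family after the values were seen. Since members were left out, a relative with enough Input could not meet both conditions of the rule. Over all kept genes, 2613 of 16588 had values of at least 0.6 in mock, dsRNA and Silvestrol and 1211 a PEG value of at most -1. Of the 51 relatives 28 met the first condition and 6 the second. The 6 were MYH9 (0.59 in mock and -1.27 with PEG), CEP170 (0.06 and -1.37), STAG3 (0.19 and -1.38), DLG1 (-0.04 and -1.05), NPIPB3 (0.36 and -1.83) and NBPF9 (0.75 and -1.12). SMC3, the cohesin partner of SMC1A, had 1.02 in mock and -0.23 with PEG, against 0.65 and -1.01 for SMC1A. The filamin FLNA had 0.73 in mock and -0.89 with PEG, against 0.62 and -1.39 for FLNC. NOTCH2 had 0.54 in mock, short of 0.6, and -0.90 with PEG. NOTCH3 had 0.69 and -0.27, with own-Input PEG ratios of -0.90, -1.73 and 0.63, so that PEG replicate 3 alone was above 0. The plexins PLXNA1, PLXNB1, PLXNB2 and PLXND1 had PEG values of -0.46, -0.59, -0.48 and -0.32, with mock values of 0.86, 0.94, 1.00 and 0.71. Differences between relatives were not tested.

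Among the golgins, long coiled-coil proteins of the Golgi, GOLGA3, GOLGB1 and GCC2 had mock values of 0.83, 0.71 and 1.04. Their PEG values were -0.16, -0.60 and -0.51. In mock and PEG, GOLGA1 had 0.23 and -0.59, GOLGA2 had 0.61 and -0.21 and GOLGA5 had -0.25 and -0.18. Of the partners of EDC4 in mRNA decapping and decay, DCP1A, DCP2, EDC3 and XRN1 had mock values of 0.13, 0.13, 0.02 and 0.03 and PEG values of -0.45, -0.63, -0.13 and -0.90. EDC4 itself had 0.68 and -1.89.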
